A study of Homo sapiens with 9 samples.

Results

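LHX9 encodes a transcription factor of the LIM-homeodomain family. It was examined together with 9 related genes, which made 10 of the 18970 gene symbols in each count table. LHX9 was selected on its T>C reads, for their late rise, that is, on the values of the 24h samples described here. Its time course is therefore given as a description, with no test. The other 9 genes were listed by family and role: the LIM-homeobox genes LHX2, LHX6, LHX8, LMX1A, LMX1B and ISL1, the LIM-domain-binding cofactors LDB1 and LDB2, and the LIM-only gene LMO4. All 10 rows were present in both tables.

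The cells were cranial neural crest cells (CNCCs) at passage 4, differentiated from the established embryonic stem cell line H9. Both alleles of SOX9 carried a modified FKBP12 domain, mNeonGreen and a V5 epitope. The small molecule dTAGV-1 links the FKBP12 domain to a ubiquitin ligase, so that the tagged SOX9 protein is degraded. The labels give a relative SOX9 level of 100% at 0h and of 0% at 3h and 24h. The 0h, 3h and 24h groups held 3 samples each, from the same 3 cultures: clone S9CC13 in differentiation batch R6, and clone S9CC47 in batches R5 and R6. The dose field gives 500 nM for every sample, the 0h samples included, and the protocol names DMSO as the vehicle. All 9 samples were tagged, and cells without the tag were not analysed here. Each culture took up 4-thiouridine (4sU, 100 uM) for 2 h before harvest, starting 1 h after dTAGV-1 for the 3h group and 22 h after it for the 24h group. In SLAM-seq the incorporated base is alkylated and then read as T>C, so a read with T>C comes mostly from RNA made in the labelling window.

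LIM-homeodomain factors join a DNA-binding homeodomain to a pair of LIM domains, zinc-binding modules that hold protein partners. LDB1 and LDB2 dimerise and bind these LIM domains, which brings homeodomain factors together in larger complexes. LIM-only proteins such as LMO4 have LIM domains but no homeodomain and compete for the same LDB partners. In the embryo, LHX6 and LHX8 are known from the oral mesenchyme of the first pharyngeal arch, LMX1B from limb, kidney and periocular mesenchyme, and LHX2 and LHX9 from limb buds, gonads and brain.

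Promoter windows of RefSeq on GRCh38.p14, which run from 250 bases before to 50 bases after an annotated start, were found for 9 of the 10 genes. LDB2 was not matched. The 15 windows were searched on both strands for TAATTA, a core letter string bound by homeodomains, and for ACAAAG and ACAATG, core strings bound by SOX proteins. TAATTA reads the same on both strands, and ACAAAG and ACAATG cannot match at the same place. Windows are shown for LHX9, the gene on which the list was built, for LMX1B, the only other gene called in T>C reads at 24h, and for LHX6, called in total reads at 3h. Capitals mark a motif match, the rest is in lower case, and each is written 5′ to 3′ on the strand of its gene.
LHX9, upstream start, chr1:197912214-197912513, plus strand: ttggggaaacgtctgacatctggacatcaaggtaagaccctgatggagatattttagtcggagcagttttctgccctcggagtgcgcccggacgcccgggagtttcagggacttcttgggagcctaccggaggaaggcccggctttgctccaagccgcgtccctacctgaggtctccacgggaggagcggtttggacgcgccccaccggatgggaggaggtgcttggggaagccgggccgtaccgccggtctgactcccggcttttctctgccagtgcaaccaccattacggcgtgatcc
LHX9, downstream start, chr1:197915824-197916123, plus strand: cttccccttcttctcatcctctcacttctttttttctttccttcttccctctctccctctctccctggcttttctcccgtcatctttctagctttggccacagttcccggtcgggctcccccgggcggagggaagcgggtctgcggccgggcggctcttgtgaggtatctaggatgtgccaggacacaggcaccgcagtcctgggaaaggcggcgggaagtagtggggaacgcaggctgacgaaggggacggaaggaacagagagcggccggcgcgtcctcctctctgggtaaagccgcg
LMX1B, chr9:126613678-126613977, plus strand: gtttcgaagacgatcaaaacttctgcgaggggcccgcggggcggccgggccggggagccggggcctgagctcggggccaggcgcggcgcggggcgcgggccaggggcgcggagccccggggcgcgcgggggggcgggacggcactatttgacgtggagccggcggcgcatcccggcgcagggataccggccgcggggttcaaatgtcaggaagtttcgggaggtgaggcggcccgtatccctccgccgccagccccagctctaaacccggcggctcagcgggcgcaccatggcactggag
LHX6, the window with motifs, chr9:122227492-122227791, minus strand: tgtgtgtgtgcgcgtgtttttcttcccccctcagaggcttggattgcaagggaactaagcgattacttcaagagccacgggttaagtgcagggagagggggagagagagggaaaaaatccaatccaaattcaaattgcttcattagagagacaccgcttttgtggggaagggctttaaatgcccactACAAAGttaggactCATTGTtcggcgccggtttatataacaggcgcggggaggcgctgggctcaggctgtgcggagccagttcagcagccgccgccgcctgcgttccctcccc

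None of the 15 windows held TAATTA, which occurred in 4.84% of the 35116 windows of all genes. ACAAAG stood in 2 of the 15 windows, 1 of LMO4 and the LHX6 window shown, against 16.1% of all windows. ACAATG stood in 1, the LHX6 window shown, where it lies on the other strand and reads CATTGT, against 10.8% of all windows. The LHX6 matches begin 188 and 202 bases from the start of the window. These are letter matches and say nothing of binding.

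Total reads per library ranged from 16955633 to 28782678 and T>C reads from 3130673 to 5475800, or 15.9% to 21.3% of total reads. All 11 cranial neural crest markers reached 1 CPM (reads scaled to a library's total) in 3 or more libraries, and their summed level was 3560 to 3640 CPM at 0h, 3940 to 4040 at 3h and 4600 to 5030 at 24h, with MSX1 going from a mean of 625 at 0h to 1460 CPM at 24h and NR2F1 at 1060 CPM at both. Of 11 neuron markers, where several LIM-homeobox genes are active, 5 reached that level, and their sum was 17 to 31.3 CPM at 0h and 14.5 to 23 CPM at 24h. Of 4 neural progenitor markers, 0 reached that level. SOX1 was at 0 in every library and SOX2 at 0.225 to 0.936 CPM, while SOX3 held 19 and PAX6 6 reads over all libraries. Of 6 markers of pluripotent cells, 4 held 0 to 25 reads over all libraries, POU5F1 among them with 1, while LIN28A stood at 241 to 374 CPM and DPPA4 at 34.2 to 44.6 CPM. The markers of glia and melanocytes summed to 14.2 to 20 CPM at 0h and 3.16 to 4.58 CPM at 24h. SOX9 RNA does not measure the depleted protein. Its normalized T>C reads were 9493 to 9961 at 0h and 19880 to 23540 at 24h.

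LHX9 lies on chromosome 1 from 197911902 to 197935478 (hg38, plus strand), with no annotated gene overlapping it on the other strand. At 0h its T>C reads numbered 17 in S9CC13_R6, 72 in S9CC47_R5 and 49 in S9CC47_R6. At 3h they numbered 22, 122 and 69 in the same order of cultures, and at 24h they numbered 426, 629 and 826. Every 24h library was above every 0h and 3h library, while the 0h and 3h values overlapped.

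Divided by DESeq2 size factors, the T>C reads of LHX9 had a mean at 0h of 47.4 ± 35.8 (SD, n = 3), which was 71.8 ± 39.0 in the 3h group and 556 ± 134 in the 24h group. The log2 fold change in T>C reads was 0.83 (SE 0.233) at 3h against 0h, 3.32 (SE 0.219) at 24h against 0h and 2.50 (SE 0.218) at 24h against 3h. The value at 3h against 0h was 0.67 with the culture as a replicate block and 0.47 to 0.89 with a culture left out. Within cultures, the log2 ratio of 24h to 0h on reads plus 1 was 4.44 in S9CC13_R6, 2.89 in S9CC47_R5 and 4.00 in S9CC47_R6. The culture with the fewest LHX9 reads at 0h thus had the largest ratio. It still had the fewest LHX9 reads at 24h. In these bulk samples, a change in the share of cells that express a gene and a change in RNA per cell cannot be told apart.

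**Figure D1:**
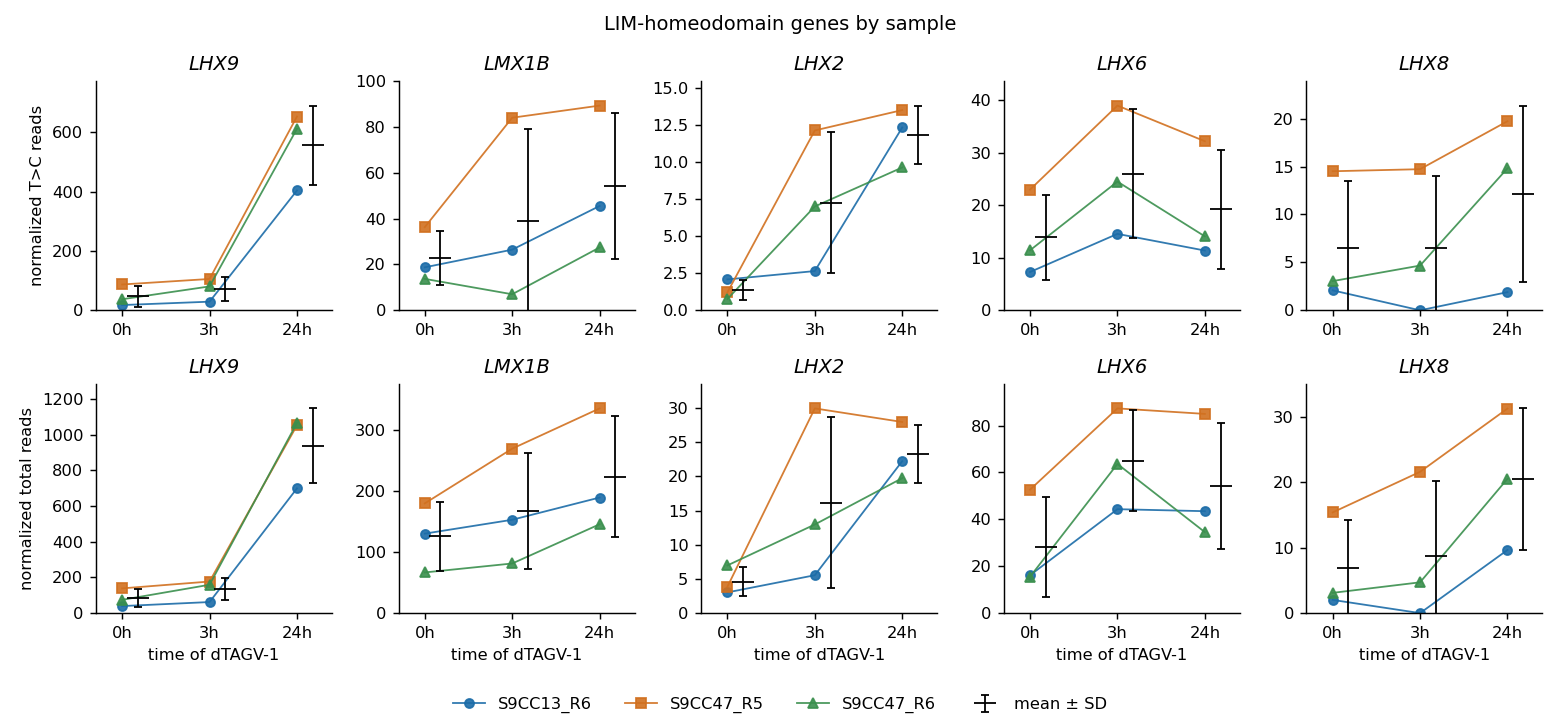
Normalized T>C reads (top) and normalized total reads (bottom) of the LIM-homeodomain genes LHX9, LMX1B, LHX2, LHX6 and LHX8 at 0h, 3h and 24h of dTAGV-1. Lines join the samples of a culture, black bars give the mean ± SD (n = 3), each panel has its own axis from 0, and the 3 LHX9 values at 24h (404 to 653 T>C reads) sit above all earlier ones.

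In the order S9CC13_R6, S9CC47_R5 and S9CC47_R6, total reads of LHX9 numbered 39, 108 and 96 at 0h, 56, 213 and 135 at 3h, and 724, 942 and 1297 at 24h. The log2 fold change in total reads was 0.82 (SE 0.183) at 3h and 3.24 (SE 0.176) at 24h. The 3h value was 0.69 with the culture as a block and 0.48 to 0.83 with a culture left out. Unconverted reads, which are total minus T>C reads, changed by 0.90 (SE 0.247) at 3h and by 3.07 (SE 0.237) at 24h. They hold RNA made before the labelling window and any new RNA read without T>C, in a proportion not measured here. Both T>C and unconverted reads of LHX9 were higher in every 24h library than in any 0h library.

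LMX1B, a LIM-homeodomain factor of dorsal limb and periocular mesenchyme, lies on the plus strand of chromosome 9, from 126613928 to 126701032. In the same order of cultures, its T>C reads numbered 18, 30 and 18 at 0h, 20, 97 and 6 at 3h, and 48, 86 and 37 at 24h. Each culture was higher at 24h than at 0h after normalization, but the groups overlapped, because S9CC47_R5 at 0h (36.3 normalized reads) exceeded S9CC47_R6 at 24h (27.4).

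LMX1B rose in T>C reads at 24h, by 1.56 on the log2 scale (SE 0.434, DESeq2 adjusted p = 0.0134). The call was lost without the surrogate variable (1.22, adjusted p = 0.111), with the culture as a replicate block plus a surrogate variable (1.43, adjusted p = 0.133), and with any 1 culture left out (1.49 to 1.97). It held with the culture as a block alone (1.20, adjusted p = 0.0834). At 3h the change was 0.26 (SE 0.447, adjusted p = 0.998), with an estimate of -0.33 when S9CC47_R5 was left out. From 3h to 24h it was 1.30 (SE 0.487, adjusted p = 0.281).

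The total reads of LMX1B were deeper, at 129, 140 and 86 at 0h, 138, 324 and 69 at 3h, and 196, 300 and 177 at 24h. They rose by 1.02 (SE 0.228, DESeq2 adjusted p = 0.000262) at 24h against 0h and by 0.77 (SE 0.246, adjusted p = 0.0450) at 24h against 3h. The rise from 0h kept its call without S9CC47_R5 (1.27, adjusted p = 0.0380) and lost it without S9CC13_R6 (1.01, adjusted p = 0.867) or S9CC47_R6 (0.65, adjusted p = 0.751). The rise from 3h was not called with the culture as a block (0.47, adjusted p = 0.143), without the surrogate variable (0.44, adjusted p = 0.378) or without any 1 culture. Unconverted reads rose by 0.89 (SE 0.247, adjusted p = 0.00715) at 24h, a call that was lost with the block plus a surrogate variable (0.70, adjusted p = 0.186) and without any 1 culture (0.57 to 1.11).

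LHX2, a factor of forebrain, limb and hair follicle, was read rarely. Its locus on chromosome 9 (124001670 to 124033301, plus strand) is overlapped on the other strand by the long non-coding RNA LHX2-AS1 and an unnamed one, and the strand setting of the counting is not given in the sources used here. T>C reads numbered 2, 1 and 1 at 0h, 2, 14 and 6 at 3h, and 13, 13 and 13 at 24h. The 24h values were all above those of 0h, from few reads. LHX2 entered the test with 5 libraries at 1 CPM, none of them at 0h, so that it could be tested only through the treated samples. The change at 24h was 3.02 (SE 1.08, DESeq2 adjusted p = 0.104), which missed the threshold of 0.1. It passed with edgeR (2.93, adjusted p = 0.0570) and with the culture as a block (3.14, adjusted p = 0.0624).

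Total reads of LHX2 numbered 3, 3 and 9 at 0h, 5, 36 and 11 at 3h, and 23, 25 and 24 at 24h, and the 0h and 24h groups did not overlap. They rose by 2.10 (SE 0.711, DESeq2 adjusted p = 0.0349) at 24h. Here too LHX2 passed the filter on low counts without a 0h library, with 3 treated ones. The call was lost with the block plus a surrogate variable (2.52, adjusted p = 0.112) and without S9CC47_R6 (3.46, adjusted p = 0.386), and without S9CC13_R6 or S9CC47_R5 the gene fell below the filter.

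LHX6, which marks first-arch oral mesenchyme and forebrain interneurons, lies on chromosome 9 from 122202577 to 122229626 on the minus strand. Its total reads numbered 16, 41 and 20 at 0h, 40, 105 and 54 at 3h, and 45, 76 and 42 at 24h. All 3 cultures were higher at 3h than at 0h, and in none was the 24h value above that of 3h after normalization. Total reads rose by 1.41 (SE 0.361, DESeq2 adjusted p = 0.00847) at 3h and were 0.98 (SE 0.374, adjusted p = 0.0710) above 0h at 24h.

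The T>C reads of LHX6 passed no test. They numbered 7, 19 and 15 at 0h, 11, 45 and 21 at 3h, and 12, 31 and 19 at 24h. The change at 3h was 1.01 (SE 0.514, DESeq2 adjusted p = 0.676), and that at 24h was 0.30 (SE 0.536, adjusted p = 0.898). Unconverted reads rose by 1.79 (SE 0.497, adjusted p = 0.0389) at 3h and by 1.48 (SE 0.514, adjusted p = 0.0479) at 24h. The 4 LHX6 calls in total and unconverted reads were each lost when any 1 culture was left out, with changes of 1.06 to 1.76 for total reads at 3h and 0.37 to 1.19 at 24h. Both 24h calls were also lost with the block plus a surrogate variable (0.77, adjusted p = 0.459 for total reads, and 0.97, adjusted p = 0.515 for unconverted reads). For unconverted reads, leaving out a culture gave 1.21 to 2.46 at 3h and 0.54 to 2.10 at 24h.

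LHX8, which acts with LHX6 in tooth and palate mesenchyme, was near the limit of detection, and 2 unnamed long non-coding RNAs overlap it on the other strand. Its T>C reads numbered 2, 12 and 4 at 0h, 0, 17 and 4 at 3h, and 2, 19 and 20 at 24h. At 0h every LHX8 read carried T>C (18 of 18), and at 24h 41 of 63 did. The change in T>C reads was 0.15 at 3h (SE 0.907, DESeq2 adjusted p = 0.998), with the sign turned in several alternatives, and 0.18 at 24h (SE 0.894, adjusted p = 0.965). In total reads LHX8 reached 1 CPM in 1 library, of the 24h group, and was not tested. No library without 4sU was analysed here, so the T>C share of a gene in unlabelled cells is unknown.

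ISL1, a factor of motor neurons, heart and early mandibular tissue, held 0 to 6 total reads in each library, and LMX1A, of the midbrain floor plate and roof plate, held 0 in all 9. A count of 0 allows up to 3 reads, or 0.104 to 0.177 CPM in total reads depending on the library. Neither gene was tested. Outside the 10 genes, LHX1 held 1 to 29 total reads per library, with T>C reads of 0, 2 and 1 at 0h and 6, 11 and 6 at 24h (3.27, SE 1.43, DESeq2 adjusted p = 0.246), and it entered that test with no library of 0h at 1 CPM. LHX3, LHX4, LHX5 and ISL2 held at most 2 total reads in any library.

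Of the 9 genes other than LHX9, 7 passed the filter in T>C reads, LHX2 through treated samples only. None was called at 3h, where 1.79% of all 12037 tested genes were. At an unadjusted p under 0.05, 2 passed (LHX2 and LHX6) against 7.33% of all genes, and edgeR called 0. At 24h, 1 of the 7 was called (LMX1B) against 4.98% of all genes, and 0 with the block plus a surrogate variable. The count was 2 with the culture as a replicate block and 2 with edgeR, where the second gene was LHX2. From 3h to 24h, 0 of the 7 were called against 1.14% of all genes, with 1 at an unadjusted p under 0.05 (LMX1B) against 8.14% of all genes, and 0 by edgeR.

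In total reads, 6 of the 9 passed the filter. At 3h, 1 was called (LHX6) against 1.89% of all 11710 tested genes. Of the 5 that reached 1 CPM in a 0h library too (LHX6 in 1 of 3), 3 were called at 24h (LMX1B, LHX6 and LDB2), all higher than at 0h, against 15.0% of all genes called in either direction and 7.11% called higher. LHX2, which passed the filter through treated samples only, was called as well and brought the count to 4. That count was 2 with the block plus a surrogate variable (LMX1B and LDB2). It was 0 without S9CC13_R6 or S9CC47_R6 and 1 without S9CC47_R5. From 3h to 24h, 1 was called (LMX1B) against 5.39%, and 0 with the culture as a block. In unconverted reads, 5 passed the filter, with 1 called at 3h (LHX6) against 1.10% of 11529 genes and 3 called at 24h (LMX1B, LHX6 and LDB2), all higher, against 12.1% of all genes in either direction and 5.84% higher, a count of 1 with the block plus a surrogate variable.

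LDB1, the broadly expressed LIM-domain-binding cofactor, lies on chromosome 10 from 102106489 to 102120368 on the minus strand. Its T>C reads numbered 42, 39 and 75 at 0h, 38, 57 and 62 at 3h, and 58, 77 and 121 at 24h. All 3 cultures were higher at 24h than at 0h after normalization, and the groups overlapped. They changed by 0.27 at 3h (SE 0.308, DESeq2 adjusted p = 0.991) and by 0.44 at 24h (SE 0.317, adjusted p = 0.630). In total reads they were 0.32 (SE 0.177, adjusted p = 0.695) and 0.17 (SE 0.185, adjusted p = 0.619), and the sign turned to -0.0092 at 3h without S9CC47_R6 and to -0.017 at 24h without S9CC47_R5.

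LDB2, the second LIM-domain-binding cofactor, lies on chromosome 4 from 16501541 to 16898678 on the minus strand, and 2 unnamed long non-coding RNAs overlap it on the other strand. Its total reads numbered 694, 665 and 984 at 0h, 746, 1069 and 718 at 3h, and 1038, 949 and 1247 at 24h. After normalization these were 701, 854 and 762 at 0h and 1003, 1061 and 1025 at 24h, so the 24h group lay wholly above the 0h group. The rise was 0.40 (SE 0.102, DESeq2 adjusted p = 0.00225), or 1.32-fold, with 0.30 to 0.46 and no call when a culture was left out.

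The rise of LDB2 stood in unconverted reads, at 0.50 (SE 0.109, DESeq2 adjusted p = 0.000206), where it kept its call without S9CC47_R5. It lost that call without S9CC13_R6 (0.44, adjusted p = 1.00) or S9CC47_R6 (0.50, adjusted p = 0.258). The T>C reads of LDB2 changed by 0.11 (SE 0.177, adjusted p = 0.871) at 24h, with the sign turned (-0.086) without S9CC13_R6. Whether T>C and unconverted reads of LDB2 differed in their response was not tested.

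LMO4, a LIM-only protein expressed in neural crest and many epithelia, lies on the plus strand of chromosome 1, from 87328880 to 87348923. At 0h its normalized T>C reads had a mean of 909 ± 63.1 (SD, n = 3), against 790 ± 67.4 in the 3h group and 894 ± 173 in the 24h group. The groups overlapped at both times. The change at 3h was -0.18 (SE 0.131, DESeq2 adjusted p = 0.911), and that at 24h was -0.061 (SE 0.136, adjusted p = 0.923). In total reads they were -0.18 (SE 0.107, adjusted p = 0.744) and -0.022 (SE 0.111, adjusted p = 0.932).

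**Figure D2:**
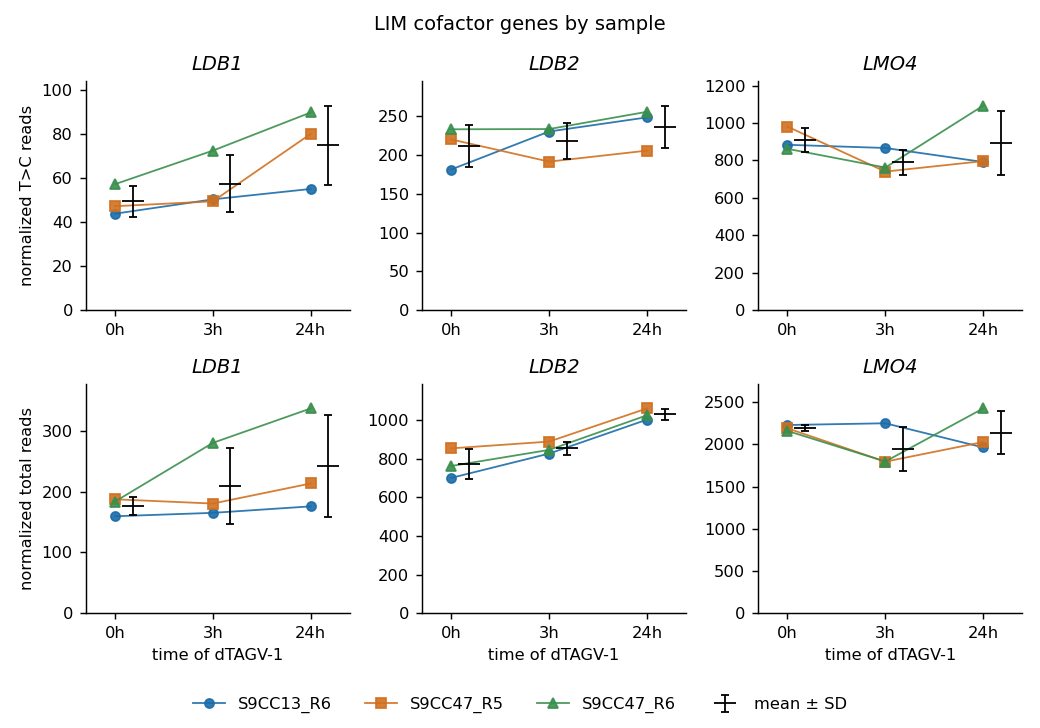
Normalized T>C reads (top) and normalized total reads (bottom) of the cofactor genes LDB1, LDB2 and LMO4 at 0h, 3h and 24h of dTAGV-1, with lines for cultures and black bars for the mean ± SD (n = 3), each panel on its own axis from 0. The 3 LDB2 total read values at 24h (1003 to 1061) lie above the 0h values (701 to 854), while LDB1 and LMO4 overlap between times.

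**Figure D3:**
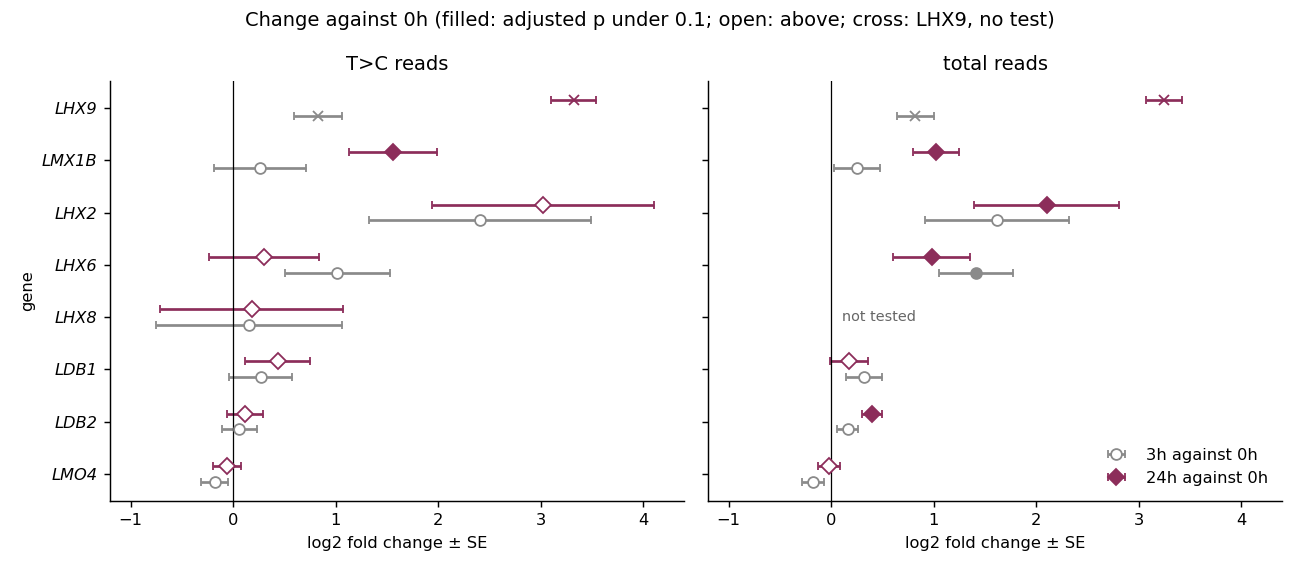
Log2 fold changes against 0h at 3h (grey) and 24h (purple) with their SE, for T>C reads (left) and total reads (right). Filled symbols passed an adjusted p under 0.1, open ones did not, and LHX9 is drawn as crosses without a test. LHX9 sits at 3.32 and 3.24 at 24h, LMO4 near 0 in both.

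The T>C share of a gene, the percent of its reads that carried T>C, shows how much of its RNA was made in the labelling window, and also depends on the T content of the region read. For LHX9 the share was 43.6% in S9CC13_R6, 66.7% in S9CC47_R5 and 51.0% in S9CC47_R6 at 0h. At 3h it was 39.3%, 57.3% and 51.1%, and at 24h 58.8%, 66.8% and 63.7%. The share was higher at 24h than at 0h in all 3 cultures, though hardly so in S9CC47_R5, and the groups overlapped. Over all reads of a library, the share also went up from 0h to 24h in each culture. It went from 18.5% to 19.8% in S9CC13_R6, from 20.1% to 20.4% in S9CC47_R5 and from 18.8% to 21.3% in S9CC47_R6. At 0h the mean share of LHX9 was 53.8% ± 11.8 (SD, n = 3). It exceeded that of 90.2% of the 11236 genes with at least 20 total reads in each 0h library. The median of these genes was 27.1% at 0h and 28.3% at 24h.

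Reads rather than molecules were counted, so the 95% Wilson intervals of a share cover counting error only. For LHX9 in S9CC13_R6 the interval at 0h was 29.3% to 59.0%, and that at 24h was 55.2% to 62.4%. Among the 4 other members with at least 20 total reads in every library, the mean shares at 0h were lower than that of LHX9, at 18.8% ± 4.18 for LMX1B, 28.3% ± 2.89 for LDB1, 27.8% ± 3.04 for LDB2 and 42.2% ± 4.76 for LMO4. LMX1B ranked above 30.8% of genes. From fewer reads, LHX6 gave 55.0% ± 17.3 and LHX8 100% at 0h. At 24h the mean shares were 24.7% ± 3.89 for LMX1B, 33.9% ± 5.68 for LDB1, 24.6% ± 3.45 for LDB2 and 44.5% ± 4.84 for LMO4. Of the 5 members at this depth, LHX9 included, 0 had shares at 24h that did not overlap those at 0h, against 11.9% of all 10973 such genes.

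**Figure D4:**
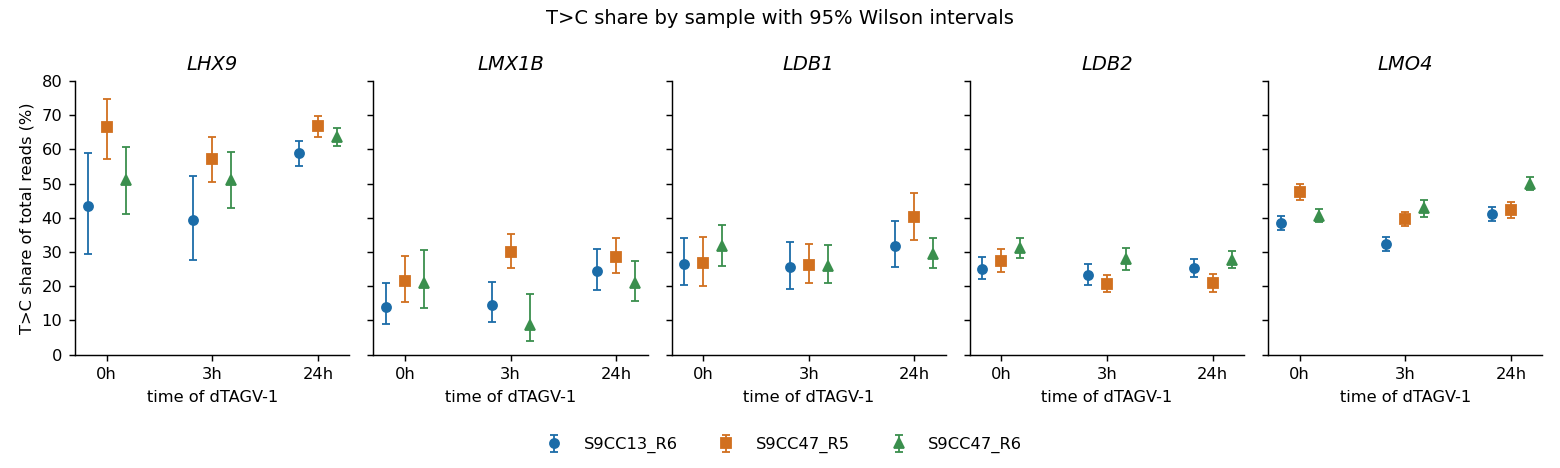
T>C share of total reads, in percent, for LHX9, LMX1B, LDB1, LDB2 and LMO4 in each sample at 0h, 3h and 24h of dTAGV-1, with 95% Wilson intervals. LHX9 shares run from 39.3% to 66.8% and overlap between times, and the LMX1B shares run from 8.70% to 29.9%.

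The cultures were compared too, and only the LMX1B difference between S9CC47_R5 and S9CC47_R6 kept its call in all 6 alternatives. Total reads were fitted with time and culture as terms, and clone S9CC13 was set against S9CC47 within batch R6, and batch R5 against R6 within clone S9CC47. Each contrast compares 1 culture with another, so clone or batch cannot be told apart from the single culture. In the first contrast, 3 of the 7 tested members were called (LHX9, LMX1B and LDB1) against 3.38% of all genes, and in the second 1 of 7 (LMX1B) against 1.65%.

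LMX1B was the gene with the clearest order of cultures. Its normalized total reads over the 3 times ran from 66.6 to 146 in S9CC47_R6, from 130 to 189 in S9CC13_R6 and from 180 to 335 in S9CC47_R5, and the last range did not overlap the first. S9CC47_R5 was above S9CC47_R6 by 1.44 (SE 0.214, DESeq2 adjusted p = 1.30e-08), and the call held in all 6 alternatives. S9CC13_R6 was above S9CC47_R6 by 0.73 (SE 0.218, adjusted p = 0.0385), a call kept in 2 of 6 alternatives. It was lost with edgeR (adjusted p = 0.120) and without the 0h (0.62), 3h (0.66) or 24h libraries (0.94).

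LHX9 was lower in S9CC13_R6 than in S9CC47_R6 at each of the 3 times, with log2 ratios of -0.90 at 0h, -1.34 at 3h and -0.61 at 24h on reads plus 1. The fitted difference was -0.89 (SE 0.223, DESeq2 adjusted p = 0.00648), and edgeR gave -0.86 with an adjusted p of 0.142. Without the 3h libraries it was -0.70 (adjusted p = 1.00) and without the 24h libraries -1.15 (adjusted p = 0.341). LDB1 was likewise lower in S9CC13_R6, by -0.65 (SE 0.204, adjusted p = 0.0597), with an edgeR adjusted p of 0.146. The LDB1 call was also lost without the 3h (-0.59) or the 24h libraries (-0.49). LHX6 was 1.13 (SE 0.373, adjusted p = 0.125) higher in S9CC47_R5 than in S9CC47_R6.

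Related gene families gave a background for these changes. Of 7 LIM-only genes and LDB partners, 5 were tested in T>C reads, and 1 was called at 24h (4.98% of all genes were), SSBP3, at 0.82 (SE 0.181, DESeq2 adjusted p = 0.000448). SSBP proteins bind LDB1 and protect it from breakdown. In total reads SSBP3 (0.61, SE 0.116) and SSBP2 (0.28, SE 0.104) were called higher at 24h, 2 of 5 tested, where 7.11% of all genes were. Of 49 genes with LIM domains but no homeodomain, mostly adaptors of the actin cytoskeleton and focal adhesions, 38 were tested in total reads, of which 5 were called higher and 7 lower at 24h, where 15.0% of all genes were called, with a median of 0.024 against 0.0036 over all genes.

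In T>C reads 1 of 40 was called higher and 4 lower, where 4.98% of all genes were called. Among them LIMCH1, an activator of non-muscle myosin, fell by 1.44 (SE 0.122, DESeq2 adjusted p = 1.48e-28) in T>C reads at 24h. FBLIM1, a filamin-binding adaptor, rose by 0.71 (SE 0.116, adjusted p = 1.94e-07). Of 16 craniofacial homeobox genes without LIM domains, 10 were tested, and 5 were called in T>C reads at 24h, all higher, against 2.38% of all genes called higher. Among them were MSX1 at 1.20 (SE 0.0779), PRRX2 at 1.19 (SE 0.198), MSX2 at 1.19 (SE 0.403) and ALX1 at 0.36 (SE 0.127). In total reads 6 of the 10 were called, all higher, against 7.11% of all genes, with a median over the 10 of 0.44.

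**Figure D5:**
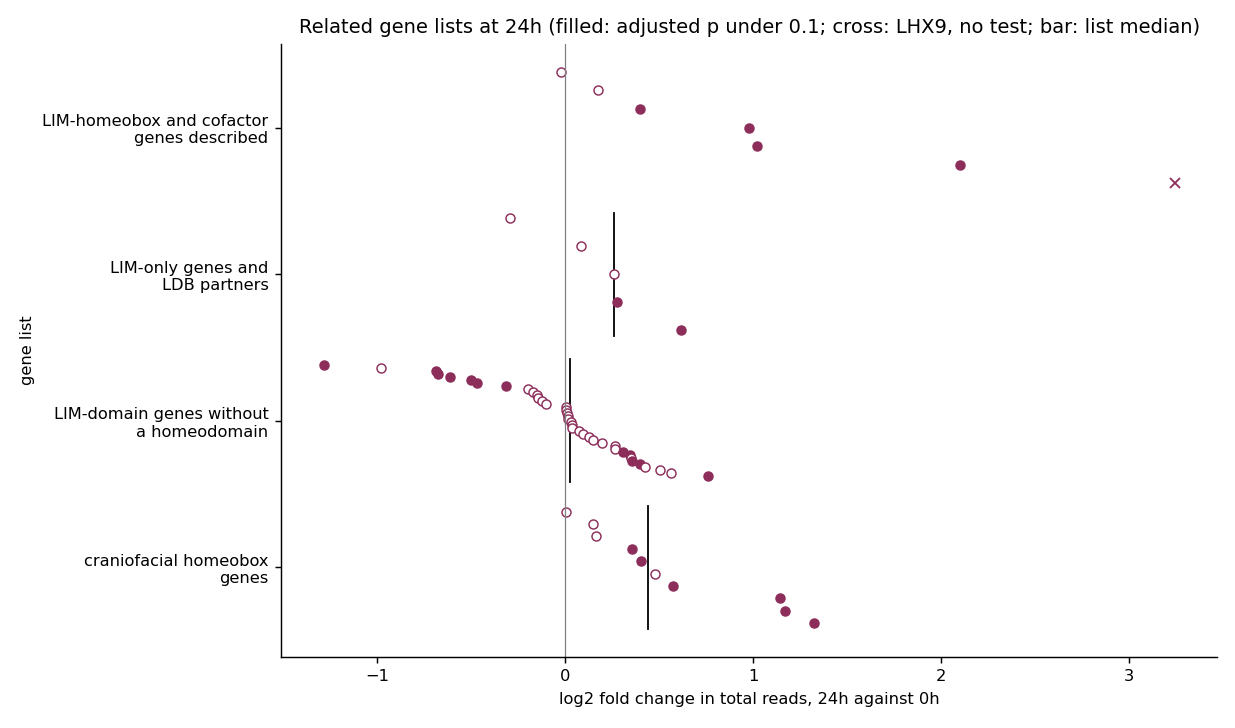
Log2 fold change in total reads at 24h against 0h for each tested gene of 4 lists, 1 symbol a gene, filled where the adjusted p was under 0.1. The bar is the median of a list (0.26 for LIM-only genes and LDB partners, 0.02 for LIM-domain genes without a homeodomain, 0.44 for craniofacial homeobox genes), and the cross at 3.24 is LHX9.

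The genes whose T>C reads followed those of LHX9 most closely were found by Pearson correlation of log2 normalized reads plus 1 over the 9 samples, among 8675 genes whose normalized T>C reads averaged 50 or more. The points share libraries and cultures, and the correlations are given as a description. They were TMEM41B (r = 0.980), an endoplasmic reticulum lipid scramblase, SRSF7 (0.969), a splicing factor, NQO1 (0.964), a quinone reductase, PIP4P2 (0.963), a phosphoinositide phosphatase, and PRRX2 (0.963), a homeobox factor of craniofacial mesenchyme. Their 24h changes were 0.32 (SRSF7) to 1.19 (PRRX2), all under that of LHX9. Among the other members, r with LHX9 was 0.77 for LHX2, 0.73 for LDB1, 0.60 for LHX8, 0.52 for LMX1B, 0.41 for LDB2, 0.38 for LHX6, 0.090 for LMO4 and -0.30 for ISL1.

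The neighbours of LHX9 on chromosome 1 were read out too. Of 12 protein-coding genes within 1 Mb, 5 were tested in T>C reads. DENND1B, a regulator of membrane traffic on the minus strand, whose nearest end and start site lies 136206 bases upstream of LHX9 at 197775696, was 0.90 (SE 0.226, DESeq2 adjusted p = 0.00362) higher at 24h, and was 0.30 (SE 0.223, adjusted p = 0.931) at 3h. In total reads 3 of the 5 were called at 24h, against 15.0% of all genes: DENND1B at 0.90 (SE 0.177), NEK7 at 0.55 (SE 0.218) and ZBTB41 at 0.43 (SE 0.157). C1orf53, the nearest at 4535 bases, gave 1.08 (SE 0.464, adjusted p = 0.118).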

How the data were processed

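SLAM-seq libraries of 9 samples were analysed. The authors deposited 2 tables of raw counts per gene symbol, of total reads and of T>C reads, made with slamdunk from trimmed first reads. They were used as raw counts, and no source names molecular identifiers. All 18 value columns were used and 0 were left out. The tables name no genome build, and the labels give hg38. Positions came from GENCODE release 44. Groups came from the sample titles.

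Raw counts of all 9 samples were fitted with DESeq2 (1.42.0, R 4.3.3) with time, batch and 1 surrogate variable from svaseq (sva 3.50.0) as terms, over protein-coding genes with 1 CPM in 3 or more samples. Calls rest on the Wald test with an adjusted p (Benjamini-Hochberg) under 0.1. Unconverted reads (total minus T>C reads) were fitted alike, and cultures were compared in total reads with time and culture as terms. A Wilson interval has a level of 95%. Alternatives were edgeR's quasi-likelihood test (4.0.16), TMM factors, no surrogate variable, culture as a replicate block with or without it, all genes with 1 count, an adjusted p under 0.05, size factors from total reads, and each culture or time left out. The fitting code was tested on simulated data.

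Cultures pair samples across times, by the clone and batch in the titles, and the deviations of paired samples correlated at 0.0169 to 0.286 over 9 pairs of samples. Nothing states that the samples of a culture were grown separately, so p-values measure only the spread between these samples. The members and gene lists were chosen with earlier results of these data known. The 10 members, at most 5 genes of each related list and the 5 genes most like LHX9 were named. One gene that this rule names is not reported here.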

Additional observations from a re-analysis of the deposited data

Results flagged for a closer look

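The effect of 24h of dTAGV-1 differed from that of 3h for LHX9, as the choice of this gene fixes: the log2 fold change at 24h minus that at 3h was 2.50 (SE 0.218) in T>C reads and 2.42 (SE 0.175) in total reads, given with no test. For LMX1B the same difference in total reads was 0.77 (SE 0.246, DESeq2 adjusted p = 0.0450), higher at 24h than at 3h in 3 of 3 cultures, and it was not called with the culture as a block (0.47, adjusted p = 0.143). No group had more than 3 samples, so no sample was examined for standing apart from its group.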

How the results depend on the processing

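LHX9 was picked for its late T>C rise in these same samples, so its values under alternatives are a description only. Its 24h rise in T>C reads was 3.32 and kept its direction under every alternative run, with 2.99 to 4.36 when a culture was left out. Its T>C share rose by 6.38 to 13.9 points without a culture and by 6.69 with reads summed over a time. Leaving out a culture left 6 samples and 1 or 2 residual degrees of freedom. Over all genes the calls in T>C reads at 24h dropped from 599 to between 54 and 251. Such a drop was not general. Without S9CC47_R6, the calls over all genes in total reads at 24h against 3h rose from 631 to 889. At 3h, that fit gave 200 calls against 221 in total reads and 128 against 127 in unconverted reads. With a culture left out, 0 of the other 9 genes were called in T>C reads at 24h (all 3 fits). The count was 0 for total and unconverted reads at 3h, and 0 for total reads at 24h against 3h. It was 0 to 1 for total reads and 0 to 1 for unconverted reads at 24h. Of all 10 genes, LHX9 included, 0 to 2 were called between cultures S9CC13_R6 and S9CC47_R6 with a time left out (LHX9 and LDB1 where it was 2) and 0 with edgeR, and 1 to 2 between S9CC47_R5 and S9CC47_R6.

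With the culture as a replicate block, 2 members other than LHX9 were called in T>C reads at 24h, as with edgeR (2). They were LMX1B and LHX2, and LHX2 passed the filter through treated samples only. The main fit called 4.98% of all genes there, and shares over all genes under these alternatives are not given here. Under the block, 0 members were called in total reads at 24h against 3h, as without the surrogate variable (0). When a surrogate variable was added to the block, 0 were called in T>C reads at 24h, 2 in total reads at 24h, 0 in total reads at 24h against 3h and 1 in unconverted reads at 24h. The block changed no other of these counts.

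Among 533 values of single genes under alternatives, 448 kept direction and side of the threshold, 48 lost a call, 4 gained one and 33 changed sign, none of the last from a called estimate. The changes of sign are given on the log2 scale. For T>C reads at 3h, LHX8 gave -0.017 without the surrogate variable, -0.19 under the replicate block, -0.011 under block plus surrogate variable, and -0.95 to 0.32 when a culture was left out. LMX1B gave -0.33 to 0.89 with a culture left out, and LDB2 -0.11 to 0.16, and -0.0027 with size factors from total reads. For T>C reads at 24h, leaving out a culture gave -0.086 to 0.30 for LDB2 and -0.27 to 0.093 for LMO4. From 3h to 24h, LHX2 gave -0.023 under block plus surrogate variable and LHX8 -0.17 with size factors from total reads, while leaving out a culture gave -0.15 to 0.47 for LDB1 and -0.046 to 0.19 for LMO4. For total reads, leaving out a culture gave -0.0092 to 0.34 for LDB1 at 3h, -0.017 to 0.11 for LDB1 and -0.26 to 0.055 for LMO4 at 24h, and from 3h to 24h -0.94 to 0.10 for LHX6, -0.36 to 0.12 for LDB1 and -0.12 to 0.20 for LMO4. LDB1 from 3h to 24h gave 0.22 without the surrogate variable and 0.21 under the block. For unconverted reads, leaving out a culture gave -0.069 to 0.37 for LDB1 at 3h, and at 24h -0.10 to -0.018 for LDB1 and -0.091 to 0.067 for LMO4. LDB1 gave -0.0049 at 24h under block plus surrogate variable, and LMO4 -0.012 over all genes with 1 count, -0.061 without the surrogate variable and -0.059 under the block. Between S9CC13_R6 and S9CC47_R6, leaving out a time gave -0.27 to 0.22 for LHX6 and -0.13 to 0.19 for LMO4, and between S9CC47_R5 and S9CC47_R6 -0.14 to 0.011 for LMO4. The cause of these changes was not tested. T>C reads of LHX2 and LHX8 never passed 20 in a library, which left SEs of 0.89 to 1.08 for their changes from 0h.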
